A study of Mus musculus with 4 samples.

Results

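MHC class I molecules and the machinery that loads them with peptide were followed through 10 genes in B220+ B cells of the mouse spleen. They were taken by symbol from the 55401 genes of the deposited counts, and each of the 10 had 1 row. The set holds 4 heavy chain genes (*H2-K1*, *H2-D1*, *H2-Q7* and *H2-T23*), the light chain *B2m*, the peptide transporter genes *Tap1* and *Tap2*, *Tapbp* for tapasin, the trimming peptidase *Erap1* and the transactivator *Nlrc5*. The question was whether their RNA differs between B cells with and without the H3K36 methyltransferase NSD1.

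RNA-seq covered 4 libraries on a C57BL/6J background, 2 labelled NSD1B WT (Mb1-Cre+ NSD1+/+) and 2 labelled NSD1B KO (Mb1-Cre+ NSD1fl/fl). Both genotypes therefore carry the Mb1-Cre transgene, in which the promoter of *Cd79a* drives Cre from early B cells onwards, and they differ in the floxed allele of *Nsd1*. The control mice were littermates, and the cells were sorted to high purity. The study used young adult mice of both sexes, without naming the sex or age behind a library, and no source says if the paired libraries of a genotype are from separate mice. If they are not, the p-values measure technical spread alone.

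An MHC class I molecule is a heavy chain bound to the light chain β2-microglobulin, and it holds a short peptide for inspection by CD8 T cells and NK cells. Peptides are cut in the cytosol by the proteasome, carried into the endoplasmic reticulum by the TAP transporter, trimmed there by ERAP1 and loaded with the help of tapasin, calreticulin and ERp57. Nearly all nucleated cells make class I molecules, and lymphocytes make much of them. The transactivator NLRC5 acts on the promoters of class I genes, *B2m* and *Tap1*, through a module of boxes that RFX, CREB/ATF and NF-Y proteins occupy.

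The stretches below show the promoters of the 3 heavy chain genes that are near copies there, and of *B2m*. Motifs for the CREB/ATF and NF-Y boxes were searched, and beside them motifs of NF-κB and of interferon response factors, but no motif for the RFX box was. They were read from RefSeq promoters (GRCm38.p6), which hold 250 bases before to 50 after a start site. RefSeq promoters were matched for 8 of the 10 genes, all but *Tap2* and *Nlrc5*. Capitals mark, in any order and on either strand, a kappa B motif (GGGA and CC parted by any 4 bases), an interferon response motif (GAAA and GAAA parted by any 2 bases), a CRE core (TGACG) and a Y box (ATTGG). On the minus strand the stretch of *H2-K1* is chr17:34000329-34000478, and on the plus strand that of *H2-D1* is chr17:35262903-35263052. The plus-strand stretch of *H2-Q7* is chr17:35439002-35439151 and that of *B2m* chr2:122147540-122147689.
H2-K1: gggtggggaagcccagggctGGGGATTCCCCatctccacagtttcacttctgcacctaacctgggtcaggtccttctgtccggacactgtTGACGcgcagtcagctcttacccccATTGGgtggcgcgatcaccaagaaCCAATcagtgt
H2-D1: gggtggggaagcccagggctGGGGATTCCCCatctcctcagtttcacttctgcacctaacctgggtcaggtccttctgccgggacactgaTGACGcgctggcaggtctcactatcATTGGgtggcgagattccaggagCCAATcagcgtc
H2-Q7: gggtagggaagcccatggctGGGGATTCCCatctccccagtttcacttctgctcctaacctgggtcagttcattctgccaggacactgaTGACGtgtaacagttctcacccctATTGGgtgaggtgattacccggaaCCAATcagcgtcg
B2m: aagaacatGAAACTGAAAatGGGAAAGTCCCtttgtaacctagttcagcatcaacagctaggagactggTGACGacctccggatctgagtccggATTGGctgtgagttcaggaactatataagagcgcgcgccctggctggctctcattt

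*H2-K1* and *H2-D1* were identical at 88.1% of the aligned positions of these stretches, *H2-K1* and *H2-Q7* at 82.9%, and *H2-D1* and *H2-Q7* at 84.2%. All 3 hold a kappa B motif (found on both strands at overlapping positions in *H2-K1*, *H2-D1* and *B2m*), a CRE core, a Y box and a further Y box on the other strand, in that order. *B2m* holds an interferon response motif, a kappa B motif, a CRE core and a Y box. Of 32851 RefSeq promoters of this length, 20.7% hold the kappa B motif, 3.4% the interferon response motif, 20.8% the CRE core and 37.4% the Y box. The promoter of *H2-T23* holds an interferon response motif and a Y box, that of *Erap1* an interferon response motif, that of *Tap1* a CRE core and a Y box, and that of *Tapbp* a Y box. The search took these exact patterns alone, so elements with other letters or another spacing could be missed. A motif that is not listed for a promoter, such as that of interferon response in the 3 near copies, is thus not shown to be absent. These matches are descriptions of the sequence, and no binding was measured. Of the 3 near-copy promoters, that of *H2-K1* belongs to a gene that was not called in NSD1B KO, and the others to genes that fell.

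Counts on genes were 6952351 and 7134170 in NSD1B WT and 7566834 and 6769118 in NSD1B KO. Values are given as CPM, counts scaled to a common library total by TMM, with the mean ± SD of the 2 libraries of a genotype. A gene was called at an adjusted p below 0.05 (quasi-likelihood test of edgeR, Benjamini-Hochberg over 11657 tested genes) and a fold change above 1.2. In this comparison 78.2% of all tested genes were called, 37.1% higher and 41.1% lower in NSD1B KO, so a call alone sets no gene apart. *Nsd1* itself had 497 and 480 counts in NSD1B WT and 284 and 280 in NSD1B KO, a log2 fold change of -0.74 (SE 0.11, edgeR adjusted p = 8.08e-08). The counts cover the whole gene and do not single out the floxed exons.

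All 10 genes passed the filter on low counts, and 8 were called. *B2m*, *H2-T23*, *Tapbp* and *Nlrc5* rose in NSD1B KO, *H2-D1*, *H2-Q7*, *Tap1* and *Tap2* fell, and *H2-K1* and *Erap1* were not called. The median log2 fold change of the 10 was 0.12, against -0.10 for all tested genes, and the range was -1.2 to 0.98. Heavy chain genes stood on both sides, and both transporter subunits fell. In each of the 10 genes the CPM of the NSD1B KO libraries did not overlap with that of the NSD1B WT libraries, as was so for 88.1% of all tested genes.

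**Figure D1:**
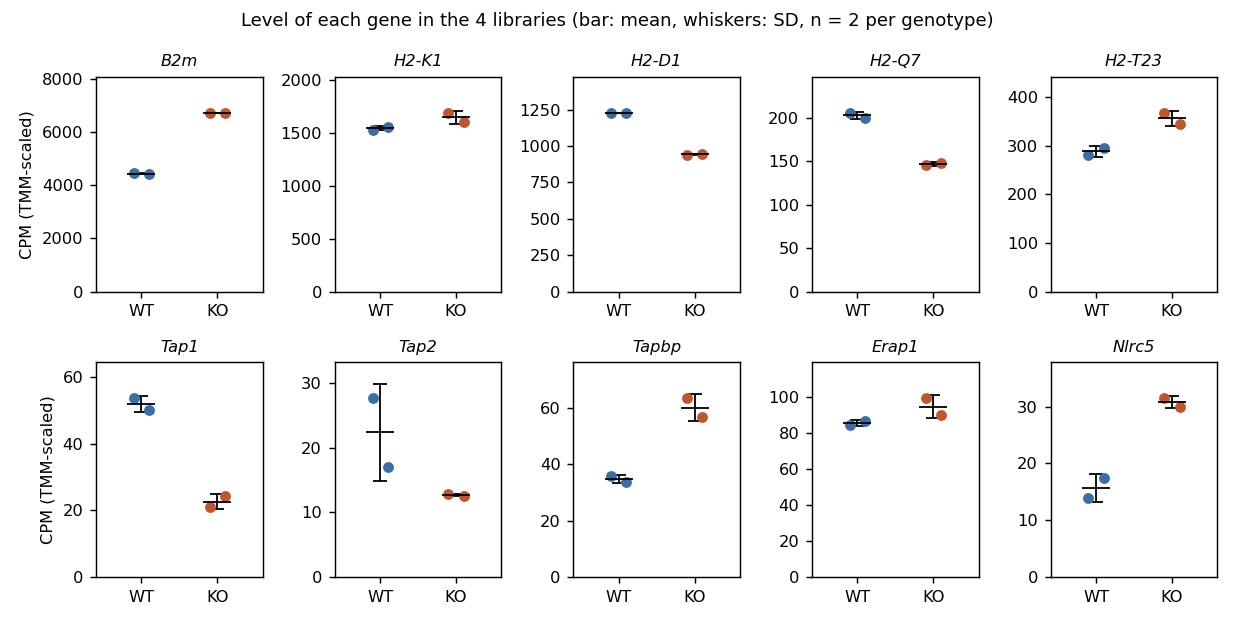
TMM-scaled CPM of each of the 10 genes in the 2 NSD1B WT (blue) and 2 NSD1B KO (orange) libraries; each vertical axis starts at 0, horizontal bars are means and whiskers are SD. *B2m* moves from about 4435 to 6717 CPM and *Tap1* from 51.9 to 22.6 CPM, and the NSD1B WT libraries of *Tap2* lie apart at 27.7 and 17.1 CPM.

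The classical heavy chains H2-K and H2-D present peptides to CD8 T cells, and their genes did not move together. *H2-K1* (ENSMUSG00000061232.16) spans 33996017 to 34000347 on chromosome 17 (mm10, minus strand). It had 10956 and 11425 counts in NSD1B WT and 12180 and 10820 in NSD1B KO, or 1533 and 1563 against 1693 and 1608 CPM. The raw counts of the genotypes overlapped, and the scaled values lay close together. The log2 fold change was 0.09 with a 95% interval of -0.06 to 0.24 (edgeR adjusted p = 0.252).

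*H2-D1* (ENSMUSG00000073411.12) lies on the plus strand from 35262730 to 35267499 on the same chromosome. Its counts were 8764 and 8983 in NSD1B WT and 6770 and 6358 in NSD1B KO, or 1228 ± 1.66 and 943 ± 3.01 CPM (n = 2). Both NSD1B KO libraries were lower than both NSD1B WT libraries, though an SD of 2 libraries is only a rough guide to spread. *H2-D1* fell by 0.38 on the log2 scale (SE 0.07, edgeR adjusted p = 1.05e-05), a loss of 23.2%. The call was lost once fold changes were corrected for exon length and GC content, where the log2 fold change was -0.15 (adjusted p = 0.274).

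The ratio of the classical genes inside a library does not depend on the scaling between libraries. Per kb of exon, *H2-K1* stood at 1.10 and 1.12 times the level of *H2-D1* in the NSD1B WT libraries. In NSD1B KO it stood at 1.58 and 1.49 times that level. With lengths from the longest transcript the ratio was 1.40 and 1.43 in NSD1B WT and 2.02 and 1.91 in NSD1B KO. The size of the ratio thus depends on the length used, and under both lengths it was higher in both NSD1B KO libraries, by 0.47 on the log2 scale.

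Among the non-classical heavy chains, *H2-Q7* encodes a Qa-2 molecule and *H2-T23* encodes Qa-1, which shows leader peptides of other class I chains to the CD94/NKG2 receptors of NK cells. *H2-Q7* (ENSMUSG00000060550.16, chromosome 17, plus strand, 35439155 to 35443773) had 1470 and 1462 counts in NSD1B WT and 1045 and 998 in NSD1B KO. This was 203 ± 4.05 and 147 ± 2.21 CPM (n = 2), and *H2-Q7* fell by 0.47 on the log2 scale (SE 0.08, edgeR adjusted p = 2.06e-06). It was lower in both NSD1B KO libraries and stayed called under each of the 15 alternatives, from -0.55 to -0.42.

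*H2-T23* (ENSMUSG00000067212.8, chromosome 17, minus strand, 36029773 to 36032855) went the other way. It was counted 2005 and 2167 times in NSD1B WT and 2647 and 2324 times in NSD1B KO, or 289 ± 11.2 and 357 ± 15.8 CPM (n = 2). The log2 fold change was 0.31 (SE 0.08, edgeR adjusted p = 0.000526). This rise of 23.6% lay close to the fold limit, and it was below the limit without NSD1B KO replicate 1 (0.26) and with library size alone as the scaling (0.23).

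β2-microglobulin is the light chain shared by class I heavy chains. *B2m* (ENSMUSG00000060802.8) lies on the plus strand of chromosome 2 from 122147686 to 122153083. It had 31803 and 32304 counts in NSD1B WT and 48386 and 45137 in NSD1B KO, or 4435 ± 22.4 and 6717 ± 10.5 CPM (n = 2). Both NSD1B KO libraries were above both NSD1B WT libraries. The log2 fold change was 0.60 (SE 0.07, edgeR adjusted p = 7.02e-10), a rise of 51.5%, and it lay between 0.41 and 0.64 over the alternatives.

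Because *B2m* is so abundant, it set the share of the whole set. The 10 genes held 0.813% and 0.811% of the counts on genes in NSD1B WT and 0.960% and 0.991% in NSD1B KO. *B2m* alone held 0.457% and 0.453% in NSD1B WT and 0.639% and 0.667% in NSD1B KO. The 4 heavy chain genes together held 0.334% and 0.337% in NSD1B WT and 0.299% and 0.303% in NSD1B KO. The light chain gene thus had a higher share in NSD1B KO and the heavy chain genes, as a sum, a lower one, although *H2-T23* was itself called higher and *H2-K1* was not called.

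Set against *B2m* per kb of exon inside each library, the 4 heavy chain genes summed to 0.221 and 0.225 in NSD1B WT and to 0.141 and 0.137 in NSD1B KO. *H2-K1* over *B2m* was 0.102 ± 0.0019 and 0.0719 ± 0.00249 (n = 2). *H2-D1* over *B2m* was 0.0923 ± 0.000591 and 0.0468 ± 0.000222. On the log2 scale these ratios changed by -0.68 for the 4 genes, -0.51 for *H2-K1* and -0.98 for *H2-D1*. Lengths taken from the longest transcript gave -0.66 for the 4 genes. A gene's length is the same in every library, so for *H2-K1* or *H2-D1* alone the length cancels from the change and tests nothing. The ratios were not corrected for the trend with exon length and GC content. With that trend removed, the log2 fold changes were 0.41 for *B2m*, 0.19 for *H2-K1* and -0.15 for *H2-D1*, in place of 0.60, 0.09 and -0.38. The ratios are given as descriptions with no test, since an exact permutation test on 2 against 2 libraries cannot reach 0.05.

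**Figure D2:**
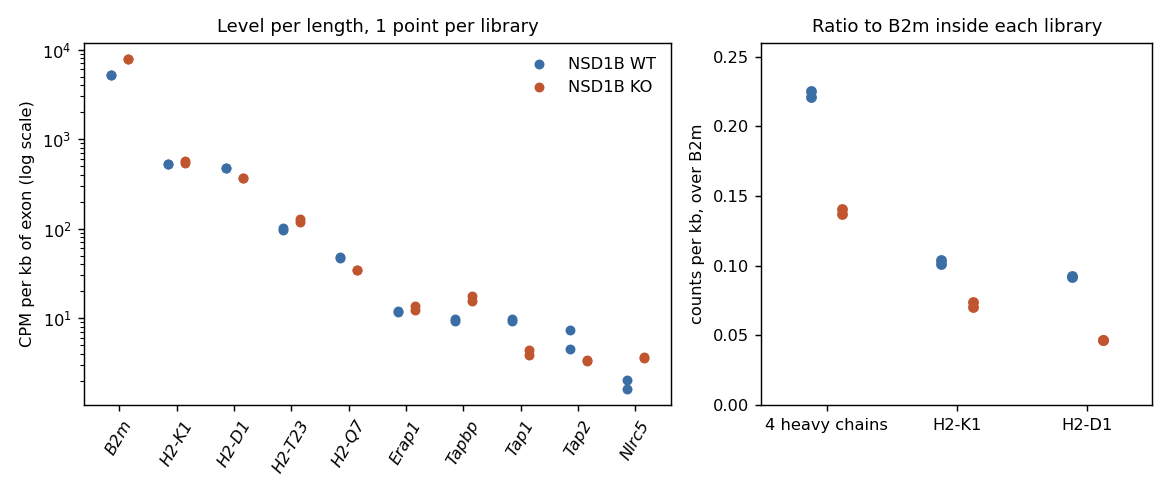
Left, CPM per kb of exon on a log axis for the 10 genes in order of their NSD1B WT mean, 1 point per library; right, counts per kb of the 4 heavy chain genes together, of *H2-K1* and of *H2-D1*, each divided by counts per kb of *B2m* in the same library. The 4 heavy chain genes over *B2m* lie at 0.221 and 0.225 in NSD1B WT (blue) and at 0.141 and 0.137 in NSD1B KO (orange).

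The transporter genes *Tap1* and *Tap2* had the largest falls in the set. Without NSD1B WT replicate 1 the fall of *Tap2* was no larger than that of *H2-Q7* (-0.40 and -0.42). TAP1 and TAP2 form the transporter that moves peptides across the membrane of the endoplasmic reticulum. *Tap1* (ENSMUSG00000037321.17, chromosome 17, plus strand, 34187553 to 34197225) had 383 and 367 counts in NSD1B WT and 151 and 163 in NSD1B KO, or 51.9 ± 2.4 and 22.6 ± 2.29 CPM (n = 2). Both NSD1B KO libraries lay well below both NSD1B WT libraries. *Tap1* fell by 1.2 on the log2 scale (SE 0.14, edgeR adjusted p = 5.59e-11), and over the alternatives the log2 fold change stayed between -1.30 and -1.09.

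*Tap2* (ENSMUSG00000024339.12, chromosome 17, plus strand, 34203527 to 34216321) had 198 and 125 counts in NSD1B WT and 92 and 85 in NSD1B KO. This gave 27.7 and 17.1 CPM in NSD1B WT and 12.8 and 12.6 CPM in NSD1B KO, so the NSD1B WT libraries differed from each other more than the lower of them differed from NSD1B KO. *Tap2* fell by 0.82 on the log2 scale (SE 0.20, edgeR adjusted p = 0.000315). Without NSD1B WT replicate 1 the log2 fold change was -0.40 and was not called (adjusted p = 0.162), and limma-voom did not call it either (-0.77, adjusted p = 0.0652).

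Tapasin bridges the transporter and empty class I molecules in the loading complex. *Tapbp* (ENSMUSG00000024308.15, chromosome 17, plus strand, 33915899 to 33929292) had 256 and 247 counts in NSD1B WT and 456 and 381 in NSD1B KO. Its CPM were 34.8 ± 1.44 (n = 2) in NSD1B WT and 63.4 and 56.6 in NSD1B KO, above NSD1B WT in both. The log2 fold change was 0.79 (SE 0.12, edgeR adjusted p = 7.54e-08), between 0.70 and 1.07 over the alternatives. Transporter and tapasin transcripts thus changed in opposite directions.

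Per kb of exon, *Tap1* over *Tapbp* was 0.991 and 0.984 in the NSD1B WT libraries and 0.219 and 0.283 in the NSD1B KO libraries. *Tap1* over *Tap2* was 1.34 and 2.03 in NSD1B WT and 1.13 and 1.32 in NSD1B KO. The first of these ratios was tight within NSD1B WT and far lower in NSD1B KO. The second varied within NSD1B WT by more than it differed between genotypes.

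ERAP1 trims peptides in the endoplasmic reticulum to the length that class I molecules hold. *Erap1* (ENSMUSG00000021583.7, chromosome 13, plus strand, 74639568 to 74693201) had 604 and 633 counts in NSD1B WT and 715 and 606 in NSD1B KO, or 85.6 ± 1.46 and 94.7 ± 6.57 CPM (n = 2). It was not called, at a log2 fold change of 0.15 with a 95% interval of -0.05 to 0.34 (edgeR adjusted p = 0.154). With the trend of length and GC content removed the value turned to -0.17 (adjusted p = 0.210), so no direction is given for *Erap1*.

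NLRC5 is the transactivator of class I genes. *Nlrc5* (ENSMUSG00000074151.13, chromosome 8, plus strand, 94434356 to 94527272) had the lowest level per length of the set in NSD1B WT. It was counted 99 and 127 times in NSD1B WT and 227 and 202 times in NSD1B KO, or 15.6 ± 2.49 and 30.8 ± 1.07 CPM (n = 2). The log2 fold change was 0.98 (SE 0.17, edgeR adjusted p = 9.17e-07), and both NSD1B KO libraries were above both NSD1B WT libraries. Over the alternatives it stayed between 0.86 and 1.17. The rise of *Nlrc5* by 97.0% stood beside falls of *H2-D1*, *H2-Q7* and *Tap1* and rises of *B2m*, *H2-T23* and *Tapbp*.

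**Figure D3:**
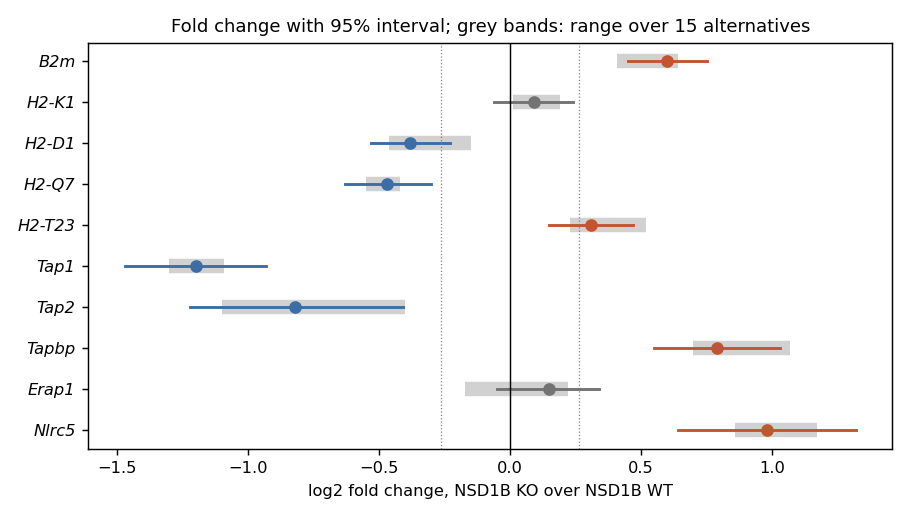
Log2 fold change of NSD1B KO over NSD1B WT (points) with 95% intervals from edgeR's quasi-likelihood fit; orange is called higher, blue called lower and grey not called, dotted lines mark a fold of 1.2, and grey bands span the values over 15 alternatives. The values run from -1.2 for *Tap1* to 0.98 for *Nlrc5*, and the band of *Erap1* crosses 0.

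Per length, *B2m* and the 4 heavy chain genes stood above the other genes of the set in both genotypes. In NSD1B WT, *B2m* stood at 5157 CPM per kb of exon, *H2-K1* at 527, *H2-D1* at 476, *H2-T23* at 99.9 and *H2-Q7* at 47.6. *Erap1* followed at 11.8, *Tapbp* at 9.59, *Tap1* at 9.48, *Tap2* at 5.93 and *Nlrc5* at 1.84 CPM per kb. *Tapbp* and *Tap1* did not differ beyond their spread in NSD1B WT, where their libraries overlapped (9.87 and 9.31 against 9.79 and 9.17 CPM per kb). In NSD1B KO the first 5 places were held by the same genes in the same order, at 7810.3, 561.8, 366, 123.5 and 34.4 CPM per kb. *Tapbp* came next at 16.5, then *Erap1* at 13.0, *Tap1* at 4.13, *Nlrc5* at 3.62 and *Tap2* at 3.36 CPM per kb. Over all 4 libraries *B2m* ranked 18th of 11647 tested genes by level per length, *H2-K1* 150th and *H2-D1* 196th, whereas *Nlrc5* ranked 7325th.

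Class I genes arose by duplication, and reads that match several genes can be left out or split by the counting. Sharing was measured as the part of all windows of 150 nt, the read length, in the longest GENCODE M21 transcript of a gene that occur whole in a transcript of another gene. *H2-K1*, *B2m*, *Tap1* and *Nlrc5* had no shared window. The share was 1.79% in *H2-D1* (all with *H2-Q1*), 0.44% in *H2-T23*, 0.67% in *Tap2* and 6.87% in *H2-Q7* (with *H2-Q10*, *H2-Q6* and *H2-Q5*). It was highest in *Erap1* at 12.47% (with *Cast*) and *Tapbp* at 8.73% (with Gm19412). At 75 nt the share was 1.33% in *H2-K1*, 7.10% in *H2-D1*, 7.01% in *H2-T23* and 19.11% in *H2-Q7*, the highest share among these 4 heavy chain genes. In *Tapbp*, *Erap1* and *Tap2* it was 17.46%, 13.64% and 8.97% at 75 nt.

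Overlaps between neighbouring genes touched the other members. *Tap1* shares 212 bp of exon with *Psmb9* on the opposite strand, 3.9% of its exon length. *Tapbp* shares 904 bp (24.9%) with Gm19412 on the opposite strand and 149 bp with *Zbtb22* on its own strand. Gm19412 had 5 and 5 counts in NSD1B WT and 15 and 20 in NSD1B KO, and *Zbtb22* had 0 and 0 against 85 and 71. *Erap1* shares 834 bp (11.5%) with *Cast* on the opposite strand, and *Nlrc5* shares 78 bp with 9330175E14Rik, which had 0 and 0 counts in NSD1B WT and 168 and 105 in NSD1B KO. *Tap2* shares 533 bp (14.1%) with Gm15821 on the opposite strand, which had no count in any library, and 165 bp (4.4%) with Gm20496, counted 1873 to 2399 times in each library. Whether the counting used strand is not given in the sources used here, so the part of these overlaps in the values of *Tapbp*, *Tap1*, *Tap2*, *Nlrc5* and *Erap1* was not tested.

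The wider pathway was read through 8 lists of 113 symbols, of which 81 genes were tested. Of these 27 rose and 40 fell, and their median on the log2 scale was -0.28. The lists are given in the order of the pathway, each beside the 37.1% higher and 41.1% lower of all tested genes. Of the 81 genes 8 had no count in a genotype, as had 2203 of all 11657 tested genes. A gene at 0 in a genotype is thus common in these libraries.

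Of the other class I heavy chain genes of the MHC, 7 were tested, 2 rose and 4 fell (median -0.49). *H2-T22*, whose product is a ligand of some γδ T cell receptors, went from 1187 and 1307 counts to 408 and 310, a log2 fold change of -1.74 (SE 0.10). Its close relative *H2-T10* went from 20 and 12 counts to 174 and 136, a log2 fold change of 3.32 (SE 0.28). Their counts are uncertain, since 29.35% of the 150 nt windows of *H2-T22* and 24.14% of those of *H2-T10* occur in another gene, and at 75 nt 16.27% of the windows of *H2-T22* occur in *H2-T10* itself. *H2-K2* fell by 0.71 on the log2 scale. *H2-M3*, which presents formylated peptides, fell from 475 and 472 counts to 329 and 320, *H2-Q5* fell from 39 and 49 to 3 and 0, and *H2-Q4* rose from 18 and 18 to 78 and 89. *H2-Q6*, the neighbour with which *H2-Q7* shares 2.81% of its windows of 150 nt, had 1299 and 1180 counts in NSD1B WT and 1564 and 1246 in NSD1B KO and was not called (0.23, edgeR adjusted p = 0.0150). *H2-M3*, *H2-Q4*, *H2-Q5* and *H2-Q6* fall outside the rule for named genes and were added once their values had been seen, to account for the whole list.

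Among class I-like genes outside the MHC, 5 were tested, 1 rose and 4 fell. *Mr1*, which presents vitamin B metabolites, had 165 and 206 counts in NSD1B WT and 0 in both NSD1B KO libraries, at least 119-fold lower against a limit of 3 counts over the group. *Cd1d1*, which presents lipids to NKT cells, had 35 and 54 counts against 0 and 0, at least 28.5-fold lower. *Fcgrt*, for the neonatal Fc receptor, fell by 1.70 on the log2 scale. Outside the rule, *Hfe* of iron uptake had 25 and 14 counts against 0 and 0, and *Raet1d*, a ligand of NKG2D, had 0 and 0 against 11 and 18. The rise of *Raet1d*, the only one of the list, was no longer called without NSD1B KO replicate 2. The median of the 5 was -3.65 with genes at 0 set to their limit.

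The chaperones and editors of the endoplasmic reticulum were called throughout, 5 of 13 higher and 8 lower. Within the loading complex, *Calr* for calreticulin rose from 362 and 408 counts to 841 and 770 (log2 fold change 1.12, SE 0.10). *Pdia3* for ERp57 fell from 1638 and 1801 counts to 1108 and 943 (-0.69, SE 0.08), and *Canx* for calnexin fell by 0.76. *Calr*, *Pdia3* and *Canx* were named for their place beside tapasin after their values were seen. *Hspa5* and *Mogs* rose by 1.30 and 1.84 on the log2 scale. *Uggt1*, which returns poorly folded class I molecules to calreticulin, fell by 2.20, and *Tapbpl*, a relative of tapasin that edits peptides, fell by 1.67. *Tapbp* and *Tapbpl* thus moved in opposite directions, as *Tapbp* and the transporter did.

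Immunoproteasome and activator genes lay between -0.70 and 0.40 on the log2 scale. Of 8 tested, *Psme3* rose (0.40), *Psme1* and *Psmb10* fell by 0.70 and 0.55 on the log2 scale, and *Psmb9*, which starts beside *Tap1*, fell from 1188 and 1179 counts to 860 and 756 (-0.50, SE 0.09). The other 4 were not called. These counts depended on the processing: with the length and GC trend removed, 3 of the 8 were higher and 4 lower. Of 9 cytosolic and endoplasmic peptidases, 3 rose and 6 fell (median -0.64). *Lnpep*, the kin of *Erap1* in endosomes, rose by 0.37, and *Nrd1* and *Lap3* fell by 0.89 and 0.86.

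Regulators of class I transcription were split, with 8 of 19 higher and 7 lower (median 0.03). The subunits of RFX, which recruits NLRC5, did not move together. *Rfxap* went from 49 and 48 counts to 304 and 250 (log2 fold change 2.56, SE 0.19), whereas *Rfxank* went from 380 and 316 to 159 and 123 (-1.25, SE 0.15). *Rfx5*, added as the remaining subunit, went from 207 and 148 to 92 and 74. *Relb*, an NF-κB subunit, rose from 6 and 5 counts to 112 and 100 (4.29, SE 0.37). *Nfyc*, a subunit of the Y box factor NF-Y, fell by 2.13 on the log2 scale. *Ezh2*, a histone methyltransferase, had 40 and 20 counts in NSD1B WT and 0 and 0 in NSD1B KO, at least 19.3-fold lower.

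Of 7 interferon receptor and Jak genes, 4 rose and 2 fell. *Ifngr1* rose from 499 and 517 counts to 2236 and 2076 (log2 fold change 2.14, SE 0.09) and *Tyk2* rose by 0.86, while *Ifnar1* fell from 209 and 188 counts to 43 and 35 (-2.29, SE 0.21). *Socs3*, an inhibitor of cytokine signals, had 56 and 56 counts against 0 and 0, at least 36.0-fold lower. Of 13 genes for the turnover and traffic of class I molecules, 3 rose and 6 fell, and how many rose depended on the library left out. *Sel1l* and *Sec61a1* fell by 2.36 and 1.2 on the log2 scale and *Sec24c* rose by 0.75. *Marchf8*, a ubiquitin ligase of membrane proteins, had 0 and 0 counts in NSD1B WT and 58 and 52 in NSD1B KO, at least 38.0-fold higher, and *Ehd1*, which recycles surface proteins, had 76 and 49 against 0 and 0, at least 40.2-fold lower.

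**Figure D4:**
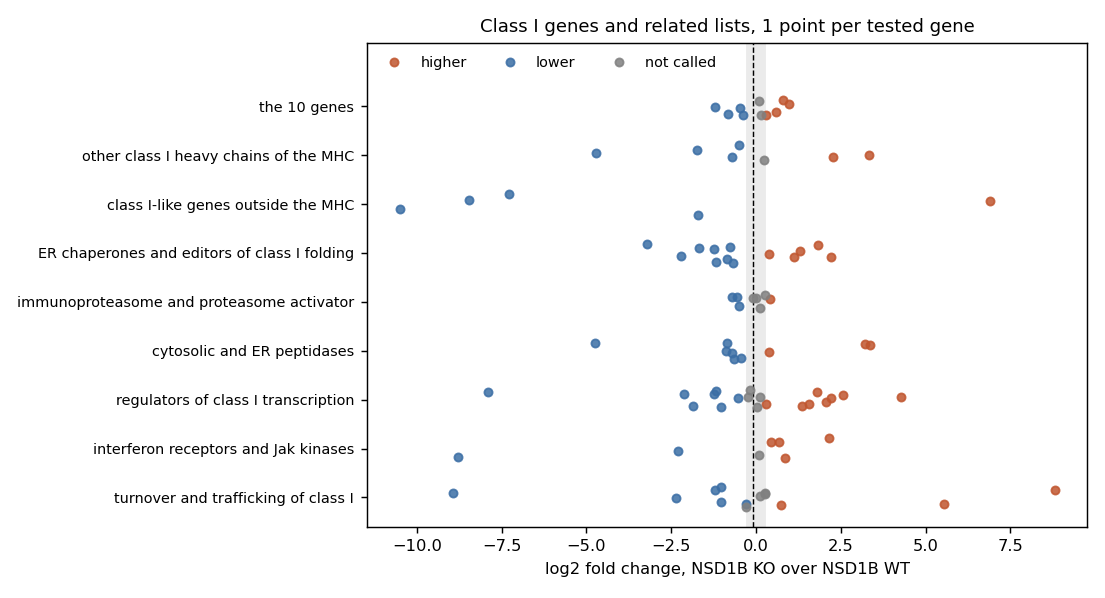
Log2 fold change of NSD1B KO over NSD1B WT for the 10 genes and the tested genes of 8 related lists, 1 point per gene; orange is called higher, blue called lower and grey not called, the shaded band is a fold of 1.2 and the dashed line the median of all tested genes (-0.10). The 10 genes lie between -1.2 and 0.98, while single genes of the lists reach -10.51 (*Mr1*) and 8.81 (*Marchf8*), values that for genes at 0 in a genotype depend on the fit and are no bounds.

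Since class I genes are used in most cell types, markers of other cells were read beside them. Counts of called markers stand beside the 78.2% of all tested genes that were called, 37.1% higher and 41.1% lower. All 10 B cell markers were counted, and their summed level was 12798 to 13025 CPM in NSD1B WT and 11289 to 12292 CPM in NSD1B KO. The largest part was *Cd79b*, with means of 6825 and 8159 CPM, which was not called. Of the 10 markers 7 fell and 1, *Ebf1*, rose. *Cd79a*, the gene whose promoter drives Cre, went from 14544 and 14192 counts to 5831 and 5166. The largest falls were those of *Cr2*, from 304 and 277 counts to 17 and 26, and *Pax5*, from 279 and 342 to 30 and 31. The summed level of 10 myeloid and dendritic markers, of which 7 were counted, was 4604 to 4707 CPM in NSD1B WT and 5798 to 6147 CPM in NSD1B KO, nearly all of it *Lyz2*. Of the 7 tested, 5 rose and 2 fell. *Csf1r* rose from 23 and 27 counts to 375 and 335, *Cd68* from 253 and 257 to 536 and 510, and *Adgre1* from 329 and 319 to 640 and 533, while *Itgam* fell from 487 and 615 to 273 and 334. *S100a8* had 39 and 28 counts in NSD1B WT and 0 and 0 in NSD1B KO, and its partner *S100a9* had 0 and 0 against 13 and 13. *Itgax*, *Flt3* and *Siglech* were at 0 in all 4 libraries. The 5 erythroid markers that were counted summed to 35.6 to 39.6 CPM in NSD1B WT and 1690 to 1944 CPM in NSD1B KO, with *Slc4a1* at 0. NK cell markers (4 of 6 counted) summed to 56.5 to 59.9 CPM in NSD1B WT and 96.5 to 98.5 CPM in NSD1B KO, with *Ncr1* and *Gzma* at 0. Of the 4 tested, 3 rose and 1 fell. *Prf1* went from 0 and 0 counts to 87 and 89 and *Klrk1* from 5 and 2 to 47 and 24. *Nkg7* rose by 0.55 on the log2 scale, and *Klrb1c* went from 26 and 21 counts to 0 and 0. T cell markers (6 of 8 counted) summed to 59.9 to 65.3 CPM over the 4 libraries, with *Cd4* and *Cd8a* at 0. Of the 5 tested, *Cd3g* and *Cd3d* rose by 1.07 and 0.93 on the log2 scale, and *Thy1* (41 and 35 counts against 0 and 0), *Lck* (32 and 42 against 3 and 4) and *Trac* (183 and 214 against 92 and 64) fell. Plasma cell markers (4 of 6) summed to 267 to 273 CPM in NSD1B WT and 229.7 to 231 CPM in NSD1B KO, with *Sdc1* and *Tnfrsf17* at 0. Of these, *Jchain* and *Xbp1* fell. *Prdm1* rose from 17 and 21 counts to 59 and 52, and *Irf4* rose by 0.32 on the log2 scale. The part of these cells in the rises of *B2m*, *H2-T23*, *Tapbp* and *Nlrc5* or in the falls of the other genes was not tested, and in sorted bulk RNA fewer cells of a type and less RNA per cell cannot be told apart.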

How the data were processed

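The files deposited by the authors hold raw counts, whole numbers for every gene of a library. Their Methods describe 150 bp paired-end reads mapped to mm10 with Bowtie2, and FPKM from Cufflinks, which were not used here. For the counting program, strand setting and annotation: not given in the sources used here. Rows that name no gene were left out of the library sizes: reads on no gene made up 44.3% to 44.6% of the total, reads that were not unique 11.2% to 13.2% and ambiguous reads 2.21% to 2.41%.

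Counts were scaled by TMM and tested with the quasi-likelihood test of edgeR 4.0.16 (R 4.3.3) after filterByExpr (minimum count 10, minimum total 15), genotype as the only term, with Benjamini-Hochberg adjustment over all tested genes. SE and 95% intervals were derived from the F statistic. The procedure was tested on simulated data. Positions and exon lengths came from GENCODE M21 (GRCm38), which matched 99.53% of gene identifiers.

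The 10 genes and the lists were chosen with earlier results of these data known. Named beside the 10 were, for each list, up to 2 called genes per direction with the largest change at a mean log2 CPM of at least 3, genes at 0 in 1 genotype with at least 50 counts in the other, and *Nsd1*. Alternatives were DESeq2 1.42.0 (Wald test and size factors), limma-voom (limma 3.58.1), 2 other scalings, 2 other filters, immunoglobulin genes left out, other thresholds, each library left out, a replicate block, and a loess trend (span 0.5) with exon length and GC content removed.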

Additional observations from a re-analysis of the deposited data

How the results depend on the processing

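Of 150 values of the 10 genes under 15 alternatives, 142 kept their direction and their side of the threshold. With the length and GC trend removed, *H2-D1* was at -0.15 (adjusted p = 0.274) and *Erap1* at -0.17, and with this trend and the replicate block they were at -0.15 and -0.17 again. *H2-T23* was at 0.23 with library size alone and *Tap2* at -0.77 (adjusted p = 0.0652) after limma-voom, both no longer called. The cause was not tested. With each library left out in turn, *H2-T23* ranged from 0.26 to 0.37 and *Tap2* from -1.10 to -0.40. Requiring 1 CPM in all 4 libraries left 2855 genes higher and 2991 lower, from fewer genes tested. At the stricter limits of 1e-05 for the adjusted p and 0.5 for the log2 change, 3 of the 10 genes were higher and 1, *Tap1*, was lower.

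The replicate numbers mark only an order. The deviations of same-numbered libraries correlated at 0.065 across genes, and the replicate block changed no call among the 10 genes, with 4254 genes higher and 4706 lower in all. With 2 libraries a genotype and about 100 counts, as in *Tap2* and *Nlrc5*, single libraries weigh most.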

Other observations

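The 7 genes of the set on chromosome 17 lie between 33915899 and 36032855, within the MHC. Another 87 tested genes lie between them in this stretch, of which 30 rose, 44 fell and 13 were not called in NSD1B KO, where 37.1% of all tested genes rose and 41.1% fell. Their median on the log2 scale was -0.45, against -0.10 for all tested genes. Of the 87, 17 had no count in a genotype, as had 2203 of all 11657 tested genes. Among the 17 were *Flot1* (0 and 0 counts in NSD1B WT, 181 and 187 in NSD1B KO) and *Dxo* (118 and 117 against 0 and 0). None of the 10 class I and loading genes was at 0 in any library. The stretch was examined after its values were seen, and no explanation was tested.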
